A study of Mus musculus with 16 samples.

Results

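Interferon-stimulated genes were followed in mouse brown adipocytes that had been transfected with plasmid, a procedure that brings foreign DNA into cells. The set held 49 genes given by symbol, all of which were found among the 54347 genes of the count table. Of these 49 members, 42 had enough counts to be tested, out of 13150 tested genes in all. *Mx1*, *Oas2*, *Oas3*, *Ifi47*, *Zbp1*, *Ifnb1* and *Cmpk2* were below the low-count filter and are described by their counts only.

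The cells were wt1-SAM, an immortalized line of brown preadipocytes that carries the CRISPRa SAM system, in which an inactive Cas9 recruits activators to the site chosen by a single guide RNA (sgRNA). In all 4 groups the differentiating cells were given 250 ng of plasmid DNA by reverse transfection on day 4 and were harvested on day 7. The amount taken up is not given. Every library thus came from transfected cells of the same line, and untransfected cells were not analysed here. The empty control group received the empty sgRNA vector alone, and the empty isoproterenol group received that vector and, for its last 24 h, isoproterenol at 1 µM, which stimulates β-adrenergic receptors. The sgRNA control and sgRNA isoproterenol groups received sgRNA vectors against the long noncoding RNA gene *Gm15551* without or with the same stimulation. Each group had 4 libraries of polyadenylated RNA, numbered 3, 4, 5 and 6, which makes 16 libraries. A number occurred once in every group. The labels do not say whether libraries came from separate cultures, so p-values measure the spread between these libraries, which may be technical.

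Total counts ranged from 9053521 to 16546187 per library, of which a single ribosomal RNA gene took 11.7% to 51.8%. *Gm15551* itself had 3 to 18 counts in empty control, 0 to 5 in empty isoproterenol, 19 to 56 in sgRNA control and 13 to 26 in sgRNA isoproterenol libraries, and it was higher with the sgRNA in all 8 pairs of equal treatment and number. All 12 brown adipocyte markers passed the filter. Their summed level averaged 25330 CPM (counts scaled to the library size) in libraries numbered 3, 25794 in 4, 22407 in 5 and 16795 in 6. Gene by gene, the highest mean was in number 5 for 7 of the 12 markers, in number 3 for 4 and in number 4 for 1. The lowest was in number 6 for 9 markers, in number 4 for 2 and in number 5 for 1. Of 13 macrophage and leukocyte markers only *Cd68* and *Cd14* passed. *Ptprc* had 6 counts over all 16 libraries, and *Adgre1* and *Cd3e* had 1 each.

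Cells sense foreign DNA and RNA through receptors such as cGAS, RIG-I and MDA5, which signal through STING or MAVS to the transcription factors IRF3 and IRF7 and so to type I interferon. Secreted interferon binds the receptor made of IFNAR1 and IFNAR2, and a complex that contains STAT2 and IRF9 then binds the interferon-stimulated response element (ISRE) in the promoters of many antiviral genes. Interferon gamma acts mainly through a different element called GAS. Introduced plasmid DNA is known to be able to start this response.

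The ISRE is the sequence the set is best known for, and a script looked for it in the promoters. RefSeq windows of 300 bases around annotated start sites (GRCm38.p6) were matched by symbol for 39 of the 49 members. The core letters GAAANNGAAA, or TTTCNNTTTC on the other strand, with overlapping matches allowed, were present for 20 of these 39 genes, a share of 51.3%, against 3.99% of all 27025 genes with a window. The palindromic GAS letters TTCNNNGAA were present for 11 of 39 (28.2%), against 9.55% of all genes. A match is only a match of letters. The windows of 5 genes with an ISRE match and of *Isg20*, which has none, are shown with ISRE letters in capitals, because the values of these genes in every library or their range over libraries are described further on. *Isg15* (minus strand, chr4:156200769-156201068) held 3 overlapping matches, *Ifit1* (plus strand, chr19:34640639-34640938) held 2 separate ones, and *Bst2* (minus strand, chr8:71537423-71537722) held 2 overlapping ones. *B2m* (plus strand, chr2:122147437-122147736) and *Rsad2* (minus strand, chr12:26456403-26456702) held 1 each. *Isg20* (plus strand, chr7:78913174-78913473) held none in any of its 3 windows, of which the one with a GAS match is shown.
Isg15: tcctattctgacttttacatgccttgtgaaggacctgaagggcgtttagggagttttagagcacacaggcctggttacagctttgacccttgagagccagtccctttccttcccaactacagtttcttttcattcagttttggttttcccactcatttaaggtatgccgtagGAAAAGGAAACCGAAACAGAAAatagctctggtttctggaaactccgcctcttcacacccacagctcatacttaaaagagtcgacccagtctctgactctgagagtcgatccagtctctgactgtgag
Ifit1: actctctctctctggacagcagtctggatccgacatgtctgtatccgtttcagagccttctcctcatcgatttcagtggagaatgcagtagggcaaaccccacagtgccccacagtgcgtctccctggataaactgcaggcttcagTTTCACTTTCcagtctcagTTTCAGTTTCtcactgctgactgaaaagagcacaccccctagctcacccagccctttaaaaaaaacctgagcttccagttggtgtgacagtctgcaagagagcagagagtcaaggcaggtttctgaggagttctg
Bst2: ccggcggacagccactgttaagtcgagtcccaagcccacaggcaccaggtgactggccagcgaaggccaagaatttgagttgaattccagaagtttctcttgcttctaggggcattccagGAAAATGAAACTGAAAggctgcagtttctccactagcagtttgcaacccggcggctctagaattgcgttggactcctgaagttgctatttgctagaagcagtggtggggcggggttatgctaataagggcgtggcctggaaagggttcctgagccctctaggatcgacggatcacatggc
B2m: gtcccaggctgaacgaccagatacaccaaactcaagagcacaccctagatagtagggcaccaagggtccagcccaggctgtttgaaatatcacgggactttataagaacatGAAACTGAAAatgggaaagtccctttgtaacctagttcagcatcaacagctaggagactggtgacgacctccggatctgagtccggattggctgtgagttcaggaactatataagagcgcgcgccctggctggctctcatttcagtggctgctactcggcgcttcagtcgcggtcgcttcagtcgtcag
Rsad2: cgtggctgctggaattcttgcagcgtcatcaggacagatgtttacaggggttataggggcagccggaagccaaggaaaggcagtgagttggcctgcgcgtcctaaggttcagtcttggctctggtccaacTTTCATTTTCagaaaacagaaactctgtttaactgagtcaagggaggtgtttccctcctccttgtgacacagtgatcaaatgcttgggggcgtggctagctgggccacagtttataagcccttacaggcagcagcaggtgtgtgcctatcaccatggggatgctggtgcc
Isg20: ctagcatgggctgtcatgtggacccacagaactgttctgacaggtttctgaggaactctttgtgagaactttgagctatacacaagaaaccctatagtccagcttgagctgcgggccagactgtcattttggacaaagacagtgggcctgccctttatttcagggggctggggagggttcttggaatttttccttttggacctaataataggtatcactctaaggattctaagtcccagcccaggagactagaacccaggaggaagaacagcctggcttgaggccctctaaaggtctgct

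The members differed widely in level. Per kilobase of annotated exon, *B2m*, the light chain of MHC class I molecules, had the highest mean level over the 16 libraries with 657 CPM per kb ± 194 (SD). The apoptosis-related *Ifi27* followed with 172 ± 35.7, *Ifitm3*, which blocks virus entry at membranes, with 68.8 ± 39.2 and *Bst2* (tetherin), which retains budding virus at the cell surface, with 35.1 ± 23.9. The spreads of *Ifitm3* and *Bst2* overlapped. The other 45 members lay at or below 10.6 CPM per kb, the level of the RNA-activated kinase gene *Eif2ak2*, and the lowest was the antiviral GTPase gene *Mx1* with 0.0213. Several members have close paralogs (the *Ifit*, *Oas*, *Gbp*, *Mx* and *Trim30* families and *Iigp1*), and their values are uncertain where reads were divided between copies.

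Member levels differed between replicate numbers. Most members were low in the 4 libraries numbered 5, and many were high in those numbered 3 and 4. In bulk libraries fewer responding cells and less RNA per cell cannot be told apart. A joint test of replicate number across the 4 group means (edgeR's quasi-likelihood test, Benjamini-Hochberg adjusted p under 0.05) called 33 of 42 members, 78.6%, where 54.7% of all 13150 genes were called. Without replicate 6, 28 members and 3787 genes were called, from 33 and 7195. The range of a member's mean log2 CPM over the 4 numbers had a median of 1.39, against 0.44 over all genes. The range exceeded 1 for 29 of 42 members (69%), against 13.2% of all genes. The mean was lowest in replicate 5 for 36 of 42 members (85.7%), against 26.7% of all genes. It was highest in replicate 4 for 20 members and in replicate 3 for 18. *Ifit2*, *Ddx60* and *Stat2* were highest in replicate 6 and *Irf3* in replicate 5. Besides replicate 5, the lowest means were in replicate 6 for *Psmb8*, *Psmb9*, *Tap1*, *Irf3* and *Ifi27* and in replicate 3 for *Irf1*.

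**Figure D1:**
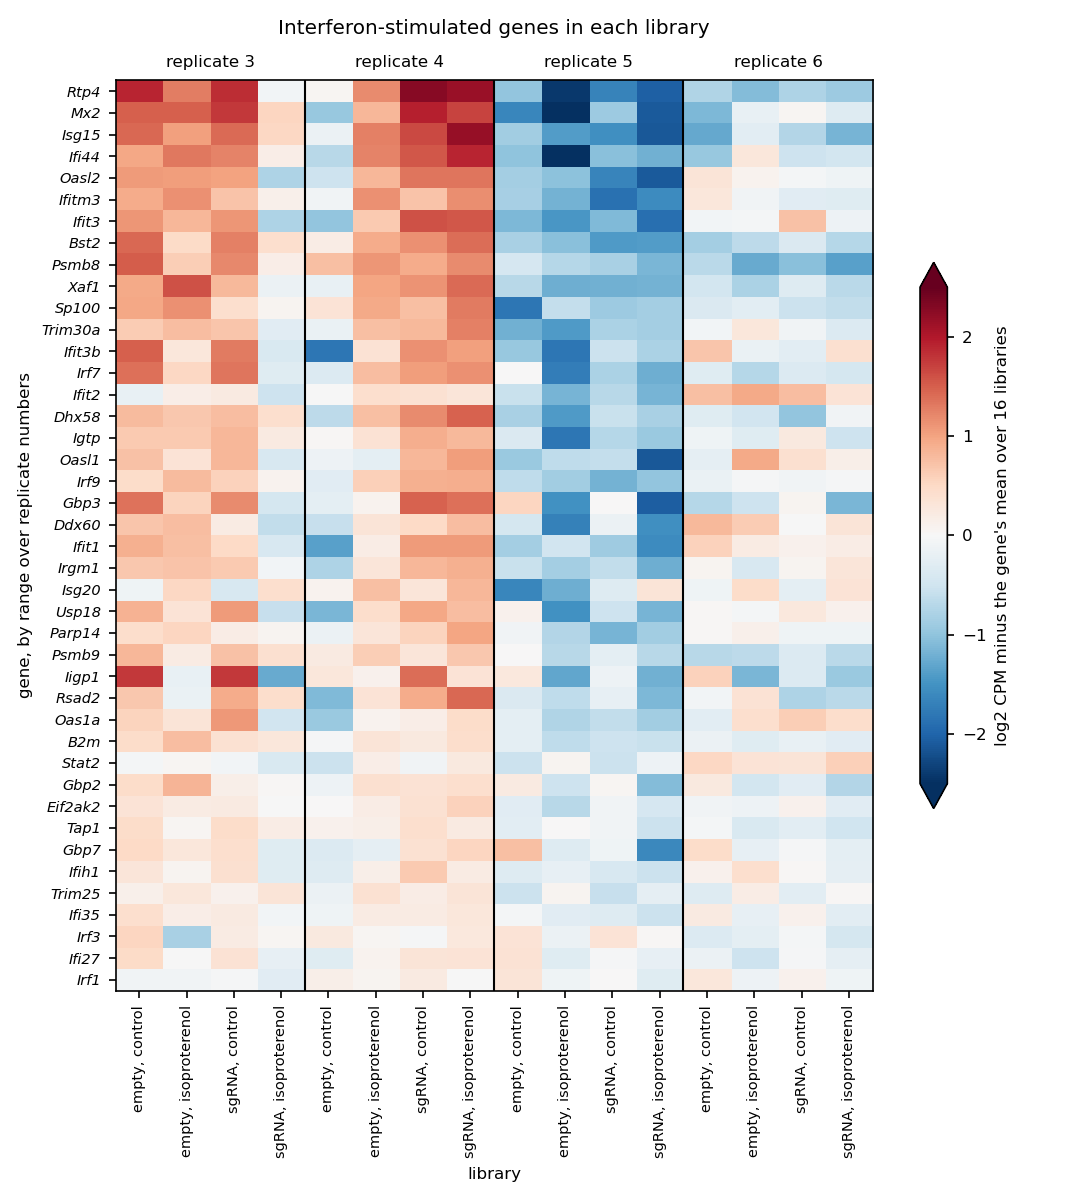
Log2 CPM of the 42 tested members in each of the 16 libraries, minus each gene's mean over the libraries. Columns are grouped by replicate number and genes are ordered by their range over the numbers. The 4 libraries of replicate 5 are mostly blue (below the mean), and those of replicates 3 and 4 are mostly red except for 2 libraries. In the sgRNA isoproterenol library of replicate 3 only 19 of the 42 members, and in the empty control library of replicate 4 only 12, are above their mean.

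Within a number the libraries were not alike. Median deviations of the 42 members from their own means were 0.68, 0.53 and 0.70 on the log2 scale in empty control, empty isoproterenol and sgRNA control libraries of replicate 3, but -0.07 in its sgRNA isoproterenol library. In replicate 4 the same 4 groups gave -0.16, 0.37, 0.81 and 0.89. In replicate 5 they gave -0.49, -0.86, -0.59 and -1.11, all below those of every other library. In replicate 6 they lay between -0.27 and -0.09. The rRNA share of the replicate 5 libraries was 47.3% and 51.8% with the empty vector and 20.2% and 20.04% with the sgRNA. The part of the rRNA share in the member levels was not tested.

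*Psmb8*, a subunit gene of the immunoproteasome that cuts peptides for presentation, had the smallest p for the replicate number among the members. In this and the following sentences, values of a number are given in the order empty control, empty isoproterenol, sgRNA control and sgRNA isoproterenol. *Psmb8* was at 11.9, 6.31, 9.51 and 4.62 CPM in replicate 3, 6.96, 8.91, 7.91 and 9.39 in replicate 4, 2.99, 2.42, 2.25 and 1.76 in replicate 5 and 2.49, 1.60, 1.90 and 1.48 in replicate 6. The 8 libraries of replicates 3 and 4 were all above the 8 of replicates 5 and 6, in every group (adjusted p = 3.97e-06, edgeR). Its range over the numbers was 2.08 on the log2 scale. *Bst2* was at 68.8, 35.4, 60.2 and 33.7 CPM in replicate 3, 28.7, 48.1, 55.7 and 67.1 in replicate 4, 14.3, 12.2, 9.36 and 9.45 in replicate 5 and 14.0, 15.98, 19.6 and 15.3 in replicate 6. Here too the libraries of replicates 3 and 4 did not overlap those of 5 and 6 (adjusted p = 1.56e-05, edgeR).

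*Ifit2*, whose protein binds RNA and restrains translation, had a different order. It was at 4.87, 6.31, 6.51 and 3.82 CPM in replicate 3, 5.52, 7.47, 7.30 and 6.96 in replicate 4, 3.77, 2.42, 3.37 and 2.40 in replicate 5 and 9.55, 10.9, 9.58 and 7.06 in replicate 6. Replicate 6 was highest and replicate 5 lowest in every group (adjusted p = 2.56e-05, edgeR). *B2m* was at 749.6, 924, 704 and 660.4 CPM in replicate 3, 531, 681, 643 and 740.1 in replicate 4, 459, 352, 380.1 and 369 in replicate 5 and 493, 441, 475 and 443 in replicate 6. Its libraries of replicates 3 and 4 lay above those of 5 and 6 without overlap, in a range of 0.96 on the log2 scale (adjusted p = 4.32e-05, edgeR).

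The widest range, 3.19 on the log2 scale, belonged to *Rtp4*, a chaperone for membrane receptors that is also induced by interferon. It was at 23.05, 14.9, 22.2 and 5.77 CPM in replicate 3, 6.31, 13.9, 29.9 and 27.8 in replicate 4, 2.99, 1.02, 1.80 and 1.36 in replicate 5 and 3.53, 2.78, 3.50 and 3.18 in replicate 6. Every library of replicates 3 and 4 was above every library of 5 and 6 (adjusted p = 7.29e-05, edgeR). *Mx2*, an antiviral GTPase gene, had a range of 3.13, *Isg15*, which encodes a ubiquitin-like modifier, 2.72, and *Ifi44* 2.52. *Irf1* had the narrowest range, 0.23, and did not pass (adjusted p = 0.0974, edgeR).

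**Figure D2:**
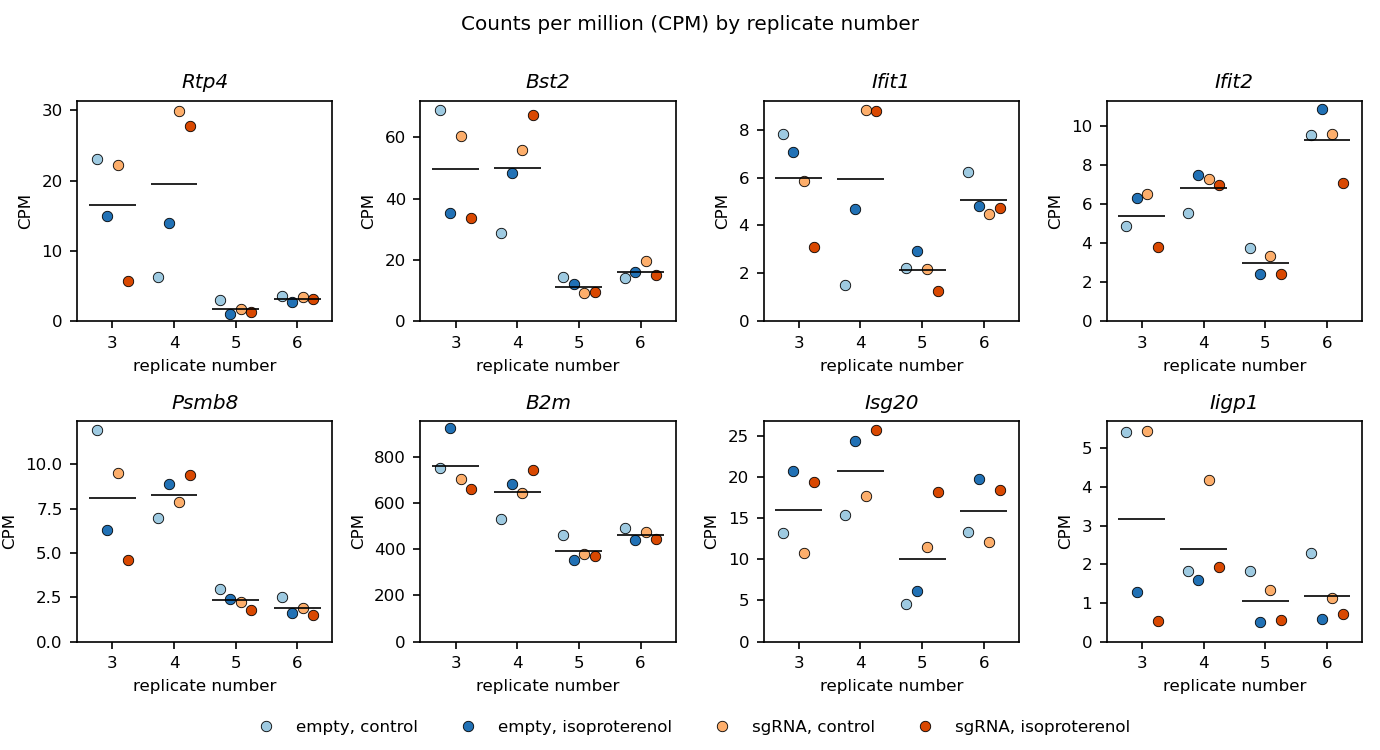
CPM (linear axis from 0) of 8 members in each library by replicate number. Each point is 1 library, its colour is the group and the line is the mean of the 4 libraries of a number. *Rtp4*, *Bst2*, *Psmb8* and *B2m* are higher in replicates 3 and 4 than in 5 and 6 in every group, *Isg20* with the empty vector is lowest in replicate 5, and *Iigp1* is lower with isoproterenol in all 8 pairs.

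By role, and beside the 54.7% of all genes called, the joint test of replicate number called 4 of 4 antigen presentation genes, 7 of 8 RNA-binding and RNA-degrading effectors, 10 of 12 other antiviral effectors, 5 of 6 interferon-inducible GTPases, 4 of 6 transcription factors, 2 of 4 nucleic acid sensors and 1 of 2 genes of the ISG15 system. The 9 members that did not pass were *Ifit3b*, *Irf1*, *Irf3*, *Rsad2*, *Ifih1*, *Usp18*, *Ifi27*, *Gbp7* and *Ddx60*, with adjusted p from 0.0699 to 0.665 (edgeR). The 7 members below the filter had 15 to 107 counts over the 16 libraries. The summed count was lowest in replicate 5 for each of them, tied with replicate 6 for *Oas2* and *Ifnb1*. The order of the other numbers differed between them. *Zbp1*, a sensor of left-handed nucleic acids, summed to 37, 49, 8 and 13 counts over the 4 libraries of replicates 3, 4, 5 and 6. *Oas3*, which makes the oligoadenylate messenger that activates RNase L, summed to 22, 24, 4 and 26. These sums come from 4 libraries of unequal depth and were not tested.

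Genes around the pathway were taken from lists that exclude the members. For all genes the shares were 54.7% called for the replicate number, 13.2% with a range over 1 and 26.7% lowest in replicate 5. Of 68 tested other interferon targets, 54 were called, 28 (41.2%) had a range over 1 and 35 (51.5%) were lowest in replicate 5. Of 17 receptors and signal transducers, 12 were called, 2 (11.8%) had a range over 1 and 8 (47.1%) were lowest in replicate 5. Of 15 sensors and adaptors, 7 were called, 3 (20%) had a range over 1 and 6 (40%) were lowest in replicate 5. *Ddx58* (RIG-I) averaged 19.9, 21.6, 9.50 and 14.8 CPM in replicates 3, 4, 5 and 6 (adjusted p = 0.00113, edgeR), so its lowest mean was also in replicate 5. *Ifnar1* averaged between 36.9 and 38.9 CPM in each number (adjusted p = 0.859). The adjusted p was 0.00308 for *Ifnar2*, 0.00430 for *Sting1*, 0.0393 for *Cgas*, 0.150 for *Tlr3* and 0.160 for *Mavs*. The joint test has no direction, and which number was lowest for these genes is not given here.

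Interferon transcripts themselves were scarce. *Ifnb1*, the gene of interferon beta, had 0, 1, 1 and 0 counts in the 4 groups of replicate 3, 0, 3, 3 and 5 in replicate 4, 0, 0, 1 and 0 in replicate 5 and 0, 1, 0 and 0 in replicate 6. Of its 15 counts, 11 were in replicate 4, and none of those in the empty control library. A count of 0 allows up to 3 counts, so the libraries with 0 cannot be told from those with 1 to 3. Over 21 interferon genes there were 61 counts in all 16 libraries, 27 of them on *Ifnz*, and 13 genes had none. No interferon gene passed the filter. Summed macrophage and leukocyte markers ranged from 10.1 to 26.3 CPM in replicate 3, 16.3 to 28.3 in 4, 9.58 to 19.8 in 5 and 12.9 to 27.7 in 6. Those ranges overlapped and each mixes both treatments. The means of this sum were 17.4, 22.3, 14.6 and 19.8 CPM, lowest in replicate 5 and highest in 4. Its 2 tested genes did not share that order. By mean log2 CPM, 1 was lowest in replicate 3 and 1 in replicate 5, while 1 was highest in replicate 4 and 1 in replicate 6. Summed preadipocyte markers (6 genes, 3 tested) averaged 28.1, 39.1, 13.9 and 69.1 CPM in replicates 3, 4, 5 and 6, with 2 of the 3 tested genes lowest in replicate 5. The part of such cells in the replicate pattern was not tested.

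The sgRNA comparison asked whether raising *Gm15551* moves these genes. No member passed for the sgRNA effect averaged over both treatments (0 of 42, edgeR's quasi-likelihood test), and no gene of all 13150 did (0%). At an unadjusted p under 0.05 there were 0 members and 437 genes (3.32%). Blocking on the replicate number gave 0 members and 35 genes (0.266%), and DESeq2 called 0 members and 10 genes. The median log2 fold change of the 42 members was 0.07, against -0.01 over all genes, and 25 members lay above 0. The median was -0.23 without replicate 4 and 0.29 without replicate 3. Within control and within isoproterenol cells, and for the interaction of sgRNA and isoproterenol, edgeR without the block called 0 members and 0 genes each. With the block it called 4 genes within control cells, 16 within isoproterenol cells and 0 for the interaction, with no member among them.

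The 4 members with the smallest p illustrate the spread. *Irf1*, a transcription factor induced mainly by interferon gamma, was at 25.5, 25.5, 26.7 and 22.4 CPM in replicate 3, 30.0, 28.5, 31.6 and 27.2 in replicate 4, 33.9, 25.2, 27.4 and 22.2 in replicate 5 and 33.1, 25.0, 29.5 and 25.3 in replicate 6. Its sgRNA difference of -0.09 ± 0.08 (log2, SE) had either sign among the pairs and the groups overlapped. *Gbp2*, a guanylate-binding protein gene, was at 5.72, 7.47, 4.55 and 4.18 CPM in replicate 3, 3.74, 5.42, 5.32 and 5.55 in replicate 4, 4.80, 2.80, 4.27 and 1.84 in replicate 5 and 4.88, 2.94, 3.34 and 2.40 in replicate 6. It was lower with the sgRNA in 6 of 8 pairs, both exceptions being in replicate 4, with a log2 fold change of -0.27 ± 0.24 (SE).

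*Rsad2* (viperin), which makes a chain-terminating nucleotide, was at 1.50, 0.773, 1.82 and 1.24 CPM in replicate 3, 0.328, 1.16, 1.82 and 2.66 in replicate 4, 0.649, 0.509, 0.748 and 0.320 in replicate 5 and 0.831, 1.18, 0.456 and 0.494 in replicate 6. *Dhx58* (LGP2), a regulator of the RNA sensors, was at 3.49, 3.22, 3.43 and 2.67 in replicate 3, 1.18, 3.38, 4.64 and 5.71 in replicate 4, 1.04, 0.636, 1.27 and 1.04 in replicate 5 and 1.56, 1.35, 0.912 and 1.84 in replicate 6. Their sgRNA differences were 0.44 ± 0.44 and 0.42 ± 0.44 (log2, SE), with the widest separation in the control libraries of replicate 4. Without replicate 4 they were -0.15 and -0.01. The adjusted p of these 4 genes was 0.9997 (edgeR).

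Pair by pair, the sgRNA difference of the members had opposite signs in different numbers. In replicate 4, 41 of 42 members were higher with the sgRNA in control cells, where 47.5% of all genes were higher. The median log2 difference was 0.96 and 19 members were over 1, against 2.01% of all genes. In isoproterenol cells of replicate 4, 39 of 42 were higher with a median of 0.38, against 51.5% of all genes. In replicate 3, 13 of 42 were higher in control cells (median -0.05), against 43.4% of all genes. In its isoproterenol cells only 5 of 42 were higher (median -0.68), against 47% of all genes. There 12 members were below -1, against 3.01% of all genes. In replicate 5, 14 and 18 of 42 were higher in control and isoproterenol cells (medians -0.21 and -0.13), against 50.9% and 50.7% of all genes. In replicate 6, 19 and 14 were higher (medians -0.04 and -0.10), against 49% and 50% of all genes. Each pair is 1 library against 1, so these counts have no replicate check, and the members are not independent of each other.

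**Figure D3:**
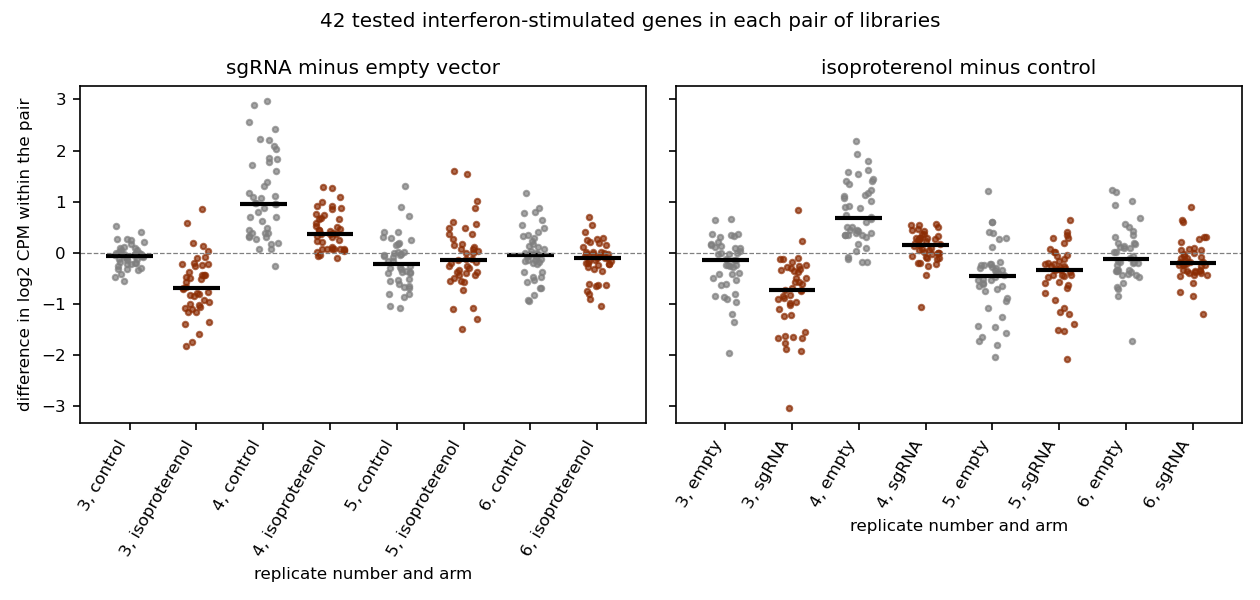
Difference in log2 CPM within each pair of libraries of the same replicate number for the 42 tested members. Each point is a member and the line is the median. On the left, sgRNA minus empty vector in control (grey) and isoproterenol (brown) cells. On the right, isoproterenol minus control in empty vector (grey) and sgRNA (brown) cells. Most members lie above 0 in replicate 4 on the left, with medians of 0.96 and 0.38, and below 0 in the isoproterenol pair of replicate 3, with a median of -0.68.

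Whether the sgRNA effect differed between numbers was tested per gene, with control and isoproterenol libraries of a number as repeats. *Isg20* was the single member called (1 of 42, 2.38%), where 15 genes of 13150 (0.114%) were called. The number of genes called went from 0 without replicate 5 to 37 without the empty isoproterenol library of replicate 3. At an unadjusted p under 0.05 there were 9 members, 21.4%, against 6.43% of all genes. *Isg20* encodes an exonuclease that degrades single-stranded RNA. It was at 13.2, 20.7, 10.8 and 19.4 CPM in replicate 3, 15.3, 24.3, 17.6 and 25.7 in replicate 4, 4.54, 6.11, 11.5 and 18.1 in replicate 5 and 13.3, 19.7, 12.1 and 18.4 in replicate 6. Both empty vector libraries of replicate 5 lay below every other library, with 35 and 48 counts against 153 and 226 in the sgRNA libraries of that number. The adjusted p was 0.00294 (edgeR). The call rests on replicate 5: without its empty isoproterenol library, without its sgRNA isoproterenol library or without the whole number the gene was no longer called, with an adjusted p of up to 0.960. Those 2 empty vector libraries also had the highest rRNA shares of all, 47.3% and 51.8%, whose part in the result was not tested.

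The next members by p did not pass. Without the low-count filter 15 members and 476 genes were called, *Ifit1*, *Irf9*, *Rtp4* and *Gbp3* among them, while DESeq2 called 1 member and 67 genes. *Ifit1*, which binds RNA lacking the cap marks of the host, was at 7.82, 7.09, 5.88 and 3.11 CPM in replicate 3, 1.51, 4.70, 8.82 and 8.77 in replicate 4, 2.21, 2.93, 2.17 and 1.28 in replicate 5 and 6.23, 4.79, 4.48 and 4.73 in replicate 6. It was higher with the sgRNA in both pairs of replicate 4 and lower in the other 6 pairs (adjusted p = 0.553, edgeR). *Parp14*, an ADP-ribosyltransferase gene, was at 4.21, 4.51, 3.50 and 3.20 in replicate 3, 2.76, 3.82, 4.56 and 6.22 in replicate 4, 2.86, 1.78, 1.27 and 1.60 in replicate 5 and 3.12, 3.36, 2.81 and 2.82 in replicate 6, with the same split of 2 pairs higher and 6 lower (adjusted p = 0.678).

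*Irf9*, the DNA-binding part of the interferon-activated complex, was at 18.8, 23.6, 20.4 and 14.6 CPM in replicate 3, 11.2, 20.7, 25.2 and 25.7 in replicate 4, 8.70, 7.38, 5.91 and 6.81 in replicate 5 and 12.1, 13.3, 12.8 and 13.3 in replicate 6. It was again higher with the sgRNA in both pairs of replicate 4 and lower in both of replicate 5, and its adjusted p was 0.744. For *Rtp4*, whose values are given above, the adjusted p was 0.759. *Gbp3* was at 7.52, 4.25, 6.65 and 2.04 CPM in replicate 3, 2.36, 3.04, 8.13 and 7.58 in replicate 4, 4.15, 0.891, 2.84 and 0.561 in replicate 5 and 1.66, 1.93, 2.96 and 1.20 in replicate 6. *Gbp7* was at 2.59, 2.19, 2.45 and 1.42 in replicate 3, 1.38, 1.49, 2.36 and 2.66 in replicate 4, 3.12, 1.40, 1.65 and 0.481 in replicate 5 and 2.49, 1.51, 1.75 and 1.48 in replicate 6. Both guanylate-binding protein genes and *Rsad2* had an adjusted p of 0.765. For *Gbp3* and *Gbp7* the sgRNA libraries were above the empty vector libraries in both pairs of replicate 4, and in replicate 3 they were below them in both pairs.

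The isoproterenol comparison asked what β-adrenergic stimulation does to the members. Averaged over both plasmids, 1 of 42 members was called (2.38%), where 2.65% of all genes were called. The called member was *Iigp1*, an immunity-related GTPase gene that acts on the vacuoles of intracellular pathogens. It was at 5.42, 1.29, 5.46 and 0.533 CPM in replicate 3, 1.84, 1.60, 4.18 and 1.92 in replicate 4, 1.82, 0.509, 1.35 and 0.561 in replicate 5 and 2.28, 0.589, 1.14 and 0.706 in replicate 6. It was lower with isoproterenol in 8 of 8 pairs, at -1.57 ± 0.42 (log2 fold change and SE) with an adjusted p of 0.0442 (edgeR). The stimulated libraries had 4 to 34 counts each, so the gene rests on few reads. When replicate numbers were blocked the estimate was -1.502 ± 0.30 (adjusted p = 0.00193), and it was also the single member called within empty vector cells (-1.49 ± 0.43, adjusted p = 0.0382, 4.47% of all genes called) and within sgRNA cells (-1.51 ± 0.40, adjusted p = 0.0295, 3.9% of all genes called). Without the block it was not called in either, and it lost the call in 15 of 20 fits that each left out a library or a number (adjusted p from 0.0212 to 0.431). With the block it was called in 4 of 4 fits that left out a number, with adjusted p from 0.00127 to 0.0259.

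*Isg20* was higher with isoproterenol in 8 of 8 pairs, with a log2 fold change of 0.63 ± 0.25 (SE) that did not pass without the block (adjusted p = 0.190, edgeR) and passed with it (0.62 ± 0.16, adjusted p = 0.0102). With the block it was called without replicate 3 (adjusted p = 0.0465), 5 (0.000114) or 6 (0.0489), but not without replicate 4 (0.0640). With the block 2 of 42 members (4.76%) were thus called, against 5.7% of all genes. This count rests on replicate 4, since without it the fit with the block called 6 members and 752 genes, where 2 members and 749 genes were called with all 4 numbers. *Trim25*, the ubiquitin ligase of the RIG-I pathway, was at 62.5, 69.4, 61.1 and 71.5 CPM in replicate 3, 51.6, 73.8, 65.0 and 71.7 in replicate 4, 39.2, 60.1, 38.3 and 48.7 in replicate 5 and 45.8, 65.2, 47.2 and 58.5 in replicate 6. It was higher with isoproterenol in 8 of 8 pairs, by 0.34 ± 0.12 (log2, SE, adjusted p = 0.151, edgeR). With the block the difference was 0.35 ± 0.06 with an adjusted p of 0.000481, but it stayed under the fold bound of 0.5. *Irf1* was lower in 7 of 8 pairs, by -0.24 ± 0.08 (adjusted p = 0.0921, and 0.00949 with the block, also under the fold bound).

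*Irf3*, which carries the signal from the sensors to the interferon genes, was at 24.6, 9.53, 19.5 and 17.3 CPM in replicate 3, 19.8, 17.4, 16.5 and 20.2 in replicate 4, 21.3, 15.3, 21.5 and 17.1 in replicate 5 and 13.2, 14.2, 16.3 and 12.4 in replicate 6. Its difference was -0.31 ± 0.14 (log2, SE) with an adjusted p of 0.281 (edgeR), and the treated and control libraries overlapped. *Ifi27* was at 346, 247, 316 and 213 CPM in replicate 3, 201, 264, 310.4 and 312 in replicate 4, 317, 201, 244 and 213 in replicate 5 and 223, 174, 241 and 212 in replicate 6. It was lower with isoproterenol in 6 of 8 pairs, the exceptions being both pairs of replicate 4, by -0.26 ± 0.14 (adjusted p = 0.343).

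**Figure D4:**
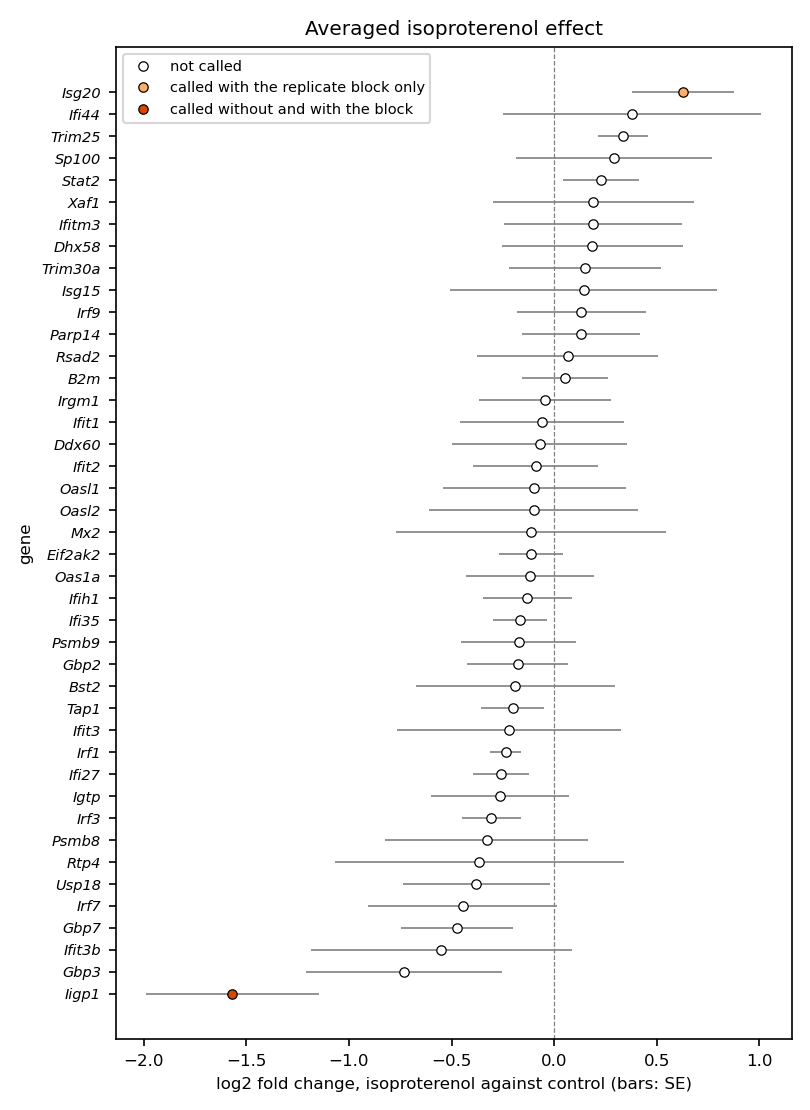
Log2 fold change under isoproterenol, averaged over both plasmids, for the 42 tested members, from the fit without the replicate block. Bars are SE. *Iigp1* at -1.57 is called without and with the block and *Isg20* at 0.63 with the block only, while the other 40 were not called.

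The median isoproterenol log2 fold change of the 42 members was -0.11, against 0.00 over all genes, and 14 members lay above 0. The sign of the member median was not stable, as it was 0.15 without replicate 3 and -0.33 without the sgRNA isoproterenol library of replicate 4. Pair by pair it also depended on the number, but each library is in 1 sgRNA pair and 1 isoproterenol pair, so these pairs are no independent repeat. The empty control library of replicate 4 is in its pairs with medians of 0.96 (sgRNA, control cells) and 0.68 (isoproterenol, empty vector cells). The sgRNA isoproterenol library of replicate 3 is in its pairs with medians of -0.68 and -0.72. In replicate 4, 38 of 42 members were higher with isoproterenol in empty vector cells (median 0.68) and 29 in sgRNA cells (median 0.15), against 51.2% and 53.1% of all genes. In replicate 3, 17 and 2 of 42 were higher, with medians of -0.14 and -0.72. In replicate 5, 8 and 9 were higher (medians -0.45 and -0.32), and in replicate 6, 19 and 12 (medians -0.13 and -0.20). In the 6 pairs of those 3 numbers, 48% to 51.4% of all genes were higher. A test of isoproterenol effects that differ by number called 0 members and 0 genes (0%) with edgeR. At an unadjusted p under 0.05 it gave 6 members and 933 genes (7.1%), and DESeq2 called 0 members and 36 genes. Without the low-count filter edgeR did call members, among 511 genes in all, and their number is given under the processing. Within empty vector cells edgeR called 0 members, against 0.829% of all genes, and within sgRNA cells 0 members, against 0.7%.

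Outside the set, *Ifngr1*, a receptor chain for interferon gamma, fell with isoproterenol, at -0.73 ± 0.07 (log2 fold change and SE, adjusted p = 7.36e-06, edgeR). Summed receptors and signal transducers averaged 787 CPM in empty control and 696 in empty isoproterenol libraries, and 764 and 670 with the sgRNA. Other interferon targets averaged 2323 and 1978, and 2332 and 1976. Sensors and adaptors went the other way, with 431 and 475, and 425 and 450. These sums, which the most abundant genes dominate, were not tested. Of 15 sensors and adaptors edgeR called 0 without the block, against 2.65% of all genes, with 1 at an unadjusted p under 0.05. Blocking on the number gave 1 call, *Sting1* (0.62, adjusted p = 0.0326), against 5.7% of all genes. *Ifnar1* (-0.04 ± 0.07) and *Ifnar2* (0.16 ± 0.11) had adjusted p of 0.835 and 0.517. *Cd68* and *Cd14* rose with isoproterenol, by 0.91 (adjusted p = 0.00518) and 0.82 (adjusted p = 0.00384), while *Ptprc* and *Adgre1* were at or near 0.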

How the data were processed

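Polyadenylated RNA of 16 libraries was read from the estimated counts per gene that the authors deposited. Per the labels and the study's methods, reads were trimmed with cutadapt and quantified with salmon against a mouse transcriptome (GENCODE M22, or M22 joined with RNAcentral; which of them gave these counts is not given in the sources used here), with GRCm38 as the build, and the deposited estimated counts were whole numbers, not normalized. Tool versions and the use of strand are not given in the sources used here, so overlapping and antisense genes cannot be told apart, and salmon divides reads shared by paralogs. Groups came from sample titles.

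Tests used R 4.3.3 and edgeR 4.0.16 (filterByExpr with a minimum count of 10 and total of 15, TMM, glmQLFit, glmQLFTest, two-sided contrasts, Benjamini-Hochberg over 13150 genes). A model of the 4 group means gave the contrasts, and a call needed a size of over 0.5 on the log2 scale besides an adjusted p under 0.05. The SE of a log2 fold change was derived from the test, as its absolute value divided by the square root of the F statistic. Joint tests of replicate number, and of effects that differ by number, used an adjusted p under 0.05. CPM and log2 CPM were taken on library sizes multiplied by the TMM factor, and log2 CPM used a prior count of 2. The factor ranged from 0.643 in the empty isoproterenol library of replicate 5 to 1.206 in the sgRNA isoproterenol library of replicate 4. DESeq2 1.42.0, RLE scaling, no filter, the rRNA gene left out, the replicate block and leaving out libraries or numbers were alternatives, and the block with a number left out was added after seeing the data. The tests were also run on simulated counts, whose outcome is not given here. Log2 CPM deviations from group means correlated at 0.22 to 0.61 in all 24 pairs of libraries with the same number, so numbers were taken to pair libraries. Pairs with another number and group had a median of -0.21 and reached 0.52, so both ranges overlapped.

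Members and lists were chosen with earlier results of these data known. Values in every library are given for the members with the 8 smallest p in the test of sgRNA effects by number, the 6 smallest for isoproterenol, the 4 smallest for the sgRNA, the 4 smallest for the replicate number, and *Ifnb1*. Of genes outside the set, a few pathway genes, called genes (up to 4 per comparison) and cell type markers are named, and some are not reported here. Exon lengths came from GENCODE M21, an earlier release than that of the quantification, and promoter windows from RefSeq. A count of 0 allows 3 counts, 0.166 to 0.390 CPM by library, for counting error only, as PCR copies were not marked.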

Additional observations from a re-analysis of the deposited data

Results flagged for a closer look

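In groups of 4 libraries, the gap between the most distant library and its nearest neighbour was set against the range of the group for the tested members whose values are given in every library and for the median deviation of the tested members, 80 checks in all, of which 4 were past the critical value. Chance gives about 1 in 20. For *Isg20* in empty control the ratio was 0.880, with replicate 5 at 2.23 log2 CPM and the others at 3.74 to 3.95. For *Isg20* in empty isoproterenol it was 0.847, with replicate 5 at 2.65 and the others at 4.31 to 4.61. For *Irf1* in empty isoproterenol it was 0.841, with replicate 4 at 4.84 and the others at 4.65 to 4.68. For *Ifi27* in sgRNA isoproterenol it was 0.980, with replicate 4 at 8.29 and the others at 7.73 to 7.74. The sgRNA effect on *Isg20* differed between replicate numbers with an adjusted p of 0.00294 (edgeR's quasi-likelihood test, Benjamini-Hochberg).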

How the results depend on the processing

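Scaling by RLE and leaving out the rRNA gene moved no count of members by over 1.5 times and changed no call of a named member. With the replicate block, members called rose from 1 to 2 for the averaged isoproterenol effect (*Isg20* added, 0.62, adjusted p = 0.0102), from 0 to 1 in empty vector cells and from 0 to 1 in sgRNA cells (*Iigp1* in both), and the block changed no other call. With the block and without replicate 3, 4, 5 or 6 in turn, 2, 6, 2 and 2 members and 607, 752, 683 and 685 of all genes were called. Without the low-count filter, members called went from 1 to 15 for sgRNA effects by number and from 0 to 10 for isoproterenol effects by number, and all genes from 15 to 476 and from 0 to 511, for which the cause was not tested. At an adjusted p under 0.001, 16 members (2579 genes) were called for the replicate number and 0 members (0 genes) for sgRNA effects by number.

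Leaving out a library or a number gave 22 members (5556 genes, without replicate 5) to 40 members (6864 genes, without the empty control library of replicate 4) for the replicate number (3787 genes and 28 members without replicate 6), 0 to 1 for averaged isoproterenol, 0 to 1 for sgRNA effects by number and 0 for the sgRNA effect. The member median ranged from -0.23 to 0.29 for the averaged sgRNA effect, -0.08 to 0.60 in control and -0.52 to 0.20 in isoproterenol cells, and from -0.33 to 0.15 for averaged isoproterenol, -0.21 to 0.46 in empty vector and -0.68 to -0.0067 in sgRNA cells, and from -0.77 to -0.00080 for the interaction. Of the named members *Rsad2* (-0.15) and *Dhx58* (-0.013) changed sign, both without replicate 4, with ranges up to 0.77 and 0.74. Over all genes, averaged sgRNA calls went from 0 to 35 with the block and 10 with DESeq2 or no filter. Isoproterenol calls went from 349 to 749 with the block and 590 without the fold bound, and within empty vector and sgRNA cells from 109 and 92 to 588 and 513 with the block and 221 and 177 with DESeq2. Leaving out replicate 3 or 4 lowered them to 120 or 170 averaged, 38 or 35 in empty vector and 31 or 29 in sgRNA cells (58 there without replicate 5). Single libraries moved the averaged count by less than 1.5 times, the empty vector count to between 58 (without the control library of replicate 5) and 181 (without that of replicate 6), and the sgRNA count to as low as 47 (without the control library of replicate 3). For sgRNA effects by number the 15 genes became 0 without replicate 5, 1 without its sgRNA isoproterenol library, 9 without its empty control library or the sgRNA isoproterenol library of replicate 3, and 34 and 37 without the empty control and empty isoproterenol libraries of replicate 3. Within control and isoproterenol cells sgRNA calls were 4 and 16 with the block, 3 and 4 with DESeq2 and 1 and 4 without the filter. DESeq2 called 67 genes for sgRNA and 36 for isoproterenol effects by number. Depth limits *Ifnb1*, *Mx1* and the other members below the filter, and the groups hold 4 libraries each.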
